A study of Rattus norvegicus with 12 samples.

Results

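The proteasome genes of the rat striatum were examined in rats that had self-administered methamphetamine (MA). They were taken by symbol, as the genes named *Psma*, *Psmb*, *Psmc*, *Psmd*, *Psme*, *Psmf* or *Psmg* with a number, without the immunoproteasome genes *Psmb8*, *Psmb9* and *Psmb10* and with a mean count of at least 10 over all libraries. This gave 43 of the 17337 genes in the count table, called members here. Of 49 symbols of this form, 46 remained without the immunoproteasome genes. *Psma3l* was listed at 0 in every library, *Psma8* (mean count 0.25) is a testis form of the outer ring, and *Psmb11* (mean count 9.42) is a thymus form of the inner ring. These 3 genes fell below the limit. The member with the lowest mean count was *Psmc3ip* (209 counts), a factor of meiotic recombination that bears a similar symbol and is no proteasome gene. A limit of 1 count gave 44 genes and a limit of 50 counts gave 43.

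Each library held poly-A RNA from the striatum of 1 adult male wild-type Sprague–Dawley rat after 16 days of MA self-administration. There were 4 rats at 12 h of abstinence (MA12, rats 21, 31, 4N and 7N), 4 at 24 h (MA24, rats 9N, 14N, 15N and 16N) and 4 that the labels call non-addicted (rats 9, 11, 12 and 13). The labels give no abstinence time for the non-addicted rats, and the study's methods do not define them. By their labels all 12 rats had access to MA, and no label names a rat given saline. The study's methods describe a saline group but no group called non-addicted. All MA24 numbers and 2 of the 4 MA12 numbers end in N, whose meaning is not given, while no non-addicted number does. The kind of number and the group cannot be told apart between MA24 and non-addicted rats. The rats lived in a 12 h light-dark cycle, and the time of day of tissue collection is not given. Abstinence time and time of day therefore cannot be told apart between MA24 and MA12 rats.

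The proteasome is the barrel-shaped protease that degrades proteins marked with ubiquitin. Its 20S core is built of outer rings of alpha subunits, which gate the entry, and inner rings of beta subunits, which cut the protein. The 19S cap consists of a base, whose ATPases unfold the substrate, and a lid, which removes ubiquitin. Dedicated chaperones assemble core and base and then leave, and alternative activators can replace the cap. In neurons the proteasome turns over synaptic proteins, and many of its genes are known to be controlled together by the transcription factor Nrf1 (*Nfe2l1*, not analysed here). By role, the members were 7 alpha subunits, 7 beta subunits, 6 base ATPases, 3 other base subunits, 8 lid subunits, 3 base chaperones, 3 core chaperones, 5 activators and inhibitors, and *Psmc3ip*.

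Between 17908962 and 23850284 reads per library were counted on genes, and the members held between 0.424% (MA12 rat 4N) and 0.503% (non-addicted rat 9) of them. Markers of striatal projection neurons were abundant in every library, with a summed level of 14235 to 17910 CPM (counts scaled to the library total) over 10 genes. Non-addicted rat 9 stood apart. It had the highest mean member level of all rats and the lowest summed levels of microglial (247 CPM, 7 genes), endothelial (341 CPM, 5 genes) and mural (63.7 CPM, 5 genes) markers, against at least 308, 385 and 83.0 CPM in every other rat. Its mean log2 level of 6 markers of ependyma and choroid plexus, each centred over all libraries, was also the highest. It was 1.37, against at most 0.82 in every other rat. In summed level it had 71.9 CPM of these markers, against 95.3 CPM in non-addicted rat 11. The part of these cells in the results was not tested, and in bulk tissue fewer cells of a type and less RNA per cell cannot be told apart.

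No proteasome member differed between MA24 and MA12 at an adjusted p below 0.05 (edgeR quasi-likelihood test, Benjamini-Hochberg over all genes). Of 12652 genes tested, 528 passed (4.17%), and 195 also changed at least 1.5-fold (1.54%), none of them a member. At an unadjusted p below 0.05 there were 4 of 43 members (9.30%), against 22.9% of all genes. The levels of the groups did not overlap for 4 members (9.30%), against 14.4% of all genes. The log2FC was above 0 for 26 of 43 members (60.5%), against 49.2% of all genes. The median log2FC was 0.030 for the members and -0.0049 for all genes, and the range over the members was from -0.25 (*Psmd14*) to 0.30 (*Psmg4*). The 95% interval of every member lay within 1.5-fold in either direction, and that of 32 members lay within 1.25-fold. The number of genes that passed overall depended on single rats, with none left without MA12 rat 21, 2 left without MA24 rat 16N and 787 without MA24 rat 9N, while the count of members stayed at 0 without any 1 of the 8 rats.

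**Figure D1:**
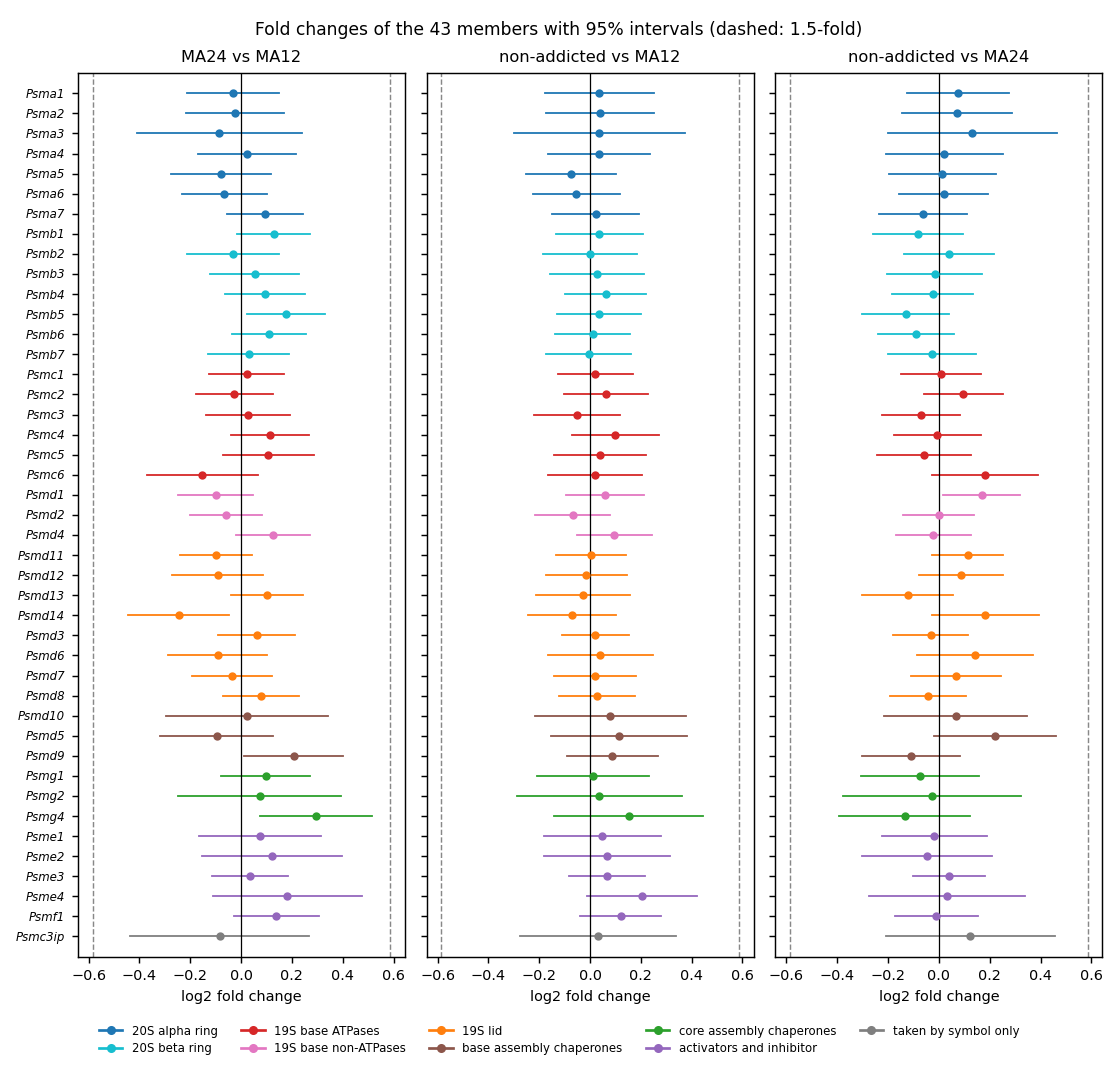
The log2 fold change of each of the 43 members (points) with its 95% interval (lines) in the 3 comparisons, coloured by role, with 1.5-fold marked by dashed lines. Every interval lies inside the dashed lines, and in MA24 vs MA12 *Psmg4*, *Psmb5*, *Psmd9* and *Psmd14* have intervals that leave out 0.

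The inner ring was the core part with the most members above 0 in this comparison. Of 7 beta subunits, 6 had a log2FC above 0 (median 0.095), against 2 of 7 alpha subunits (median -0.031). The 3 active sites of the core lie in *Psmb5*, which cuts after hydrophobic residues, *Psmb6*, which cuts after acidic residues, and *Psmb7*, which cuts after basic residues. *Psmb5* had levels of 7.20, 7.21, 7.27 and 7.35 (log2 CPM) in MA12 rats 21, 31, 4N and 7N. In MA24 rats 9N, 14N, 15N and 16N its levels were 7.38, 7.53, 7.34 and 7.48. The groups overlapped through MA12 rat 7N and MA24 rat 15N. The log2FC was 0.18 (SE 0.07, unadjusted p = 0.0286, adjusted p = 0.161, edgeR). *Psmb6* had levels of 7.04, 6.91, 7.00 and 7.05 in MA12 and of 7.07, 7.19, 7.09 and 7.09 in MA24, in the same order of rats. Its groups stood apart by a narrow margin, with a log2FC of 0.11 (SE 0.07, adjusted p = 0.349, edgeR). *Psmb7* overlapped widely, from 7.59 to 7.76 in MA12 and from 7.59 to 7.83 in MA24, with a log2FC of 0.030 (95% interval from -0.13 to 0.19). *Psmb1*, a beta subunit without an active site, had levels of 7.18, 7.14, 7.14 and 7.18 in MA12 and of 7.23, 7.40, 7.25 and 7.26 in MA24. Every MA24 rat was above every MA12 rat, and the log2FC was 0.13 (SE 0.07, adjusted p = 0.275, edgeR).

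In the 19S cap, 4 of 6 ATPases, 1 of 3 other base subunits and 3 of 8 lid subunits had a log2FC above 0, with medians of 0.025, -0.059 and -0.065. The lid subunit *Psmd14* is the deubiquitinase that cuts ubiquitin chains off the substrate. Its levels were 5.90, 5.77, 5.74 and 5.89 in MA12 rats 21, 31, 4N and 7N, and 5.65, 5.67, 5.68 and 5.31 in MA24 rats 9N, 14N, 15N and 16N. All MA24 rats lay below all MA12 rats, and rat 16N lay far below the other 3. The log2FC was -0.25 (SE 0.09, unadjusted p = 0.0191, adjusted p = 0.133, edgeR), and it was -0.17 without rat 16N. *Psmc6*, a base ATPase, had the second lowest log2FC of all members at -0.15 (SE 0.10, adjusted p = 0.389, edgeR), again with rat 16N lowest at 5.73 against 6.05 to 6.16 in the other MA24 rats. In MA12 it ran from 6.08 to 6.36, so the groups overlapped. The log2FC of *Psmc6* was -0.067 without rat 16N and -0.087 without MA12 rat 21.

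All 3 core chaperones and all 5 activators and inhibitors had a log2FC above 0, with medians of 0.096 and 0.12. *Psmg4*, a chaperone that helps to build the alpha ring, had levels of 4.73, 4.42, 4.32 and 4.59 in MA12 rats 21, 31, 4N and 7N and of 4.82, 4.85, 4.81 and 4.79 in MA24 rats 9N, 14N, 15N and 16N. The MA24 rats lay close together above a wider MA12 group, and the log2FC was 0.30 (SE 0.10, unadjusted p = 0.0124, adjusted p = 0.108, edgeR), the smallest adjusted p of any member. *Psmd9*, a chaperone of the base, had a log2FC of 0.21 (SE 0.09, unadjusted p = 0.0391, adjusted p = 0.193, edgeR). It ran from 4.97 to 5.21 in MA12 and from 5.15 to 5.44 in MA24, so the groups overlapped.

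**Figure D2:**
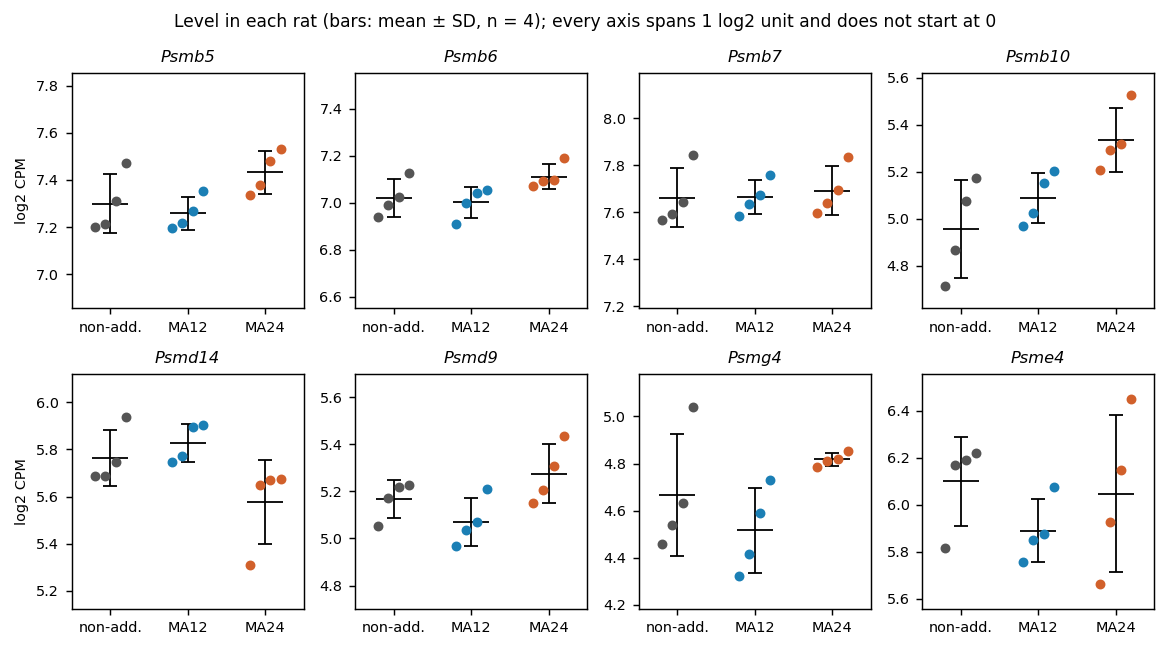
Levels in log2 CPM of 8 genes in each rat (points), with group means and SD (bars, n = 4). The MA24 rats lie above the MA12 rats without overlap for *Psmb6*, *Psmb10* and *Psmg4* and below them for *Psmd14*.

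Larger sets of housekeeping genes served as a comparison. Of 81 genes of the cytosolic ribosome, which makes proteins, 77 had a log2FC above 0 in MA24 vs MA12 (median 0.15), and 1 passed the adjusted threshold (*Rpl36*). Of 84 genes of oxidative phosphorylation, the mitochondrial ATP supply, 76 were above 0 (median 0.12) and none passed. Summed markers of neurons in general were lower in MA24, from 1344 to 1559 CPM over 4 genes, against 1675 to 2061 CPM in MA12, without overlap. Of these 4 genes, 3 had a log2FC below 0 and 1 above, and none passed. Summed markers of striatal projection neurons overlapped, from 16499 to 17694 CPM in MA24 and from 14998 to 17910 CPM in MA12. Of these 10 genes, 5 had a log2FC above 0 and 5 below, and 1 of the latter passed (*Pdyn*). Summed mural markers ran from 90.7 to 112 CPM in MA24 and from 103 to 174 CPM in MA12. All 5 mural markers had a log2FC below 0 (median -0.35), and 2 of them, *Abcc9* and *Rgs5*, passed the adjusted threshold. All 5 tested markers of ependyma and choroid plexus had a log2FC below 0 (median -0.36), and 6 of 7 oligodendrocyte markers had one above 0 (median 0.16). Of astrocyte, microglial and endothelial markers, 3 of 6, 5 of 7 and 3 of 5 were above 0. None of the markers of these 5 classes passed. No marker of the classes named here that has a row in the count table was at 0 in all libraries, and the part of these cells in the member levels was not tested.

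In non-addicted vs MA12, none of the 43 members passed, with or without the fold limit, where 5 of 12657 genes did (0.0395% by either rule). At an unadjusted p below 0.05 there were no members, against 12% of all genes, and no member had groups that did not overlap, against 6.65%. The log2FC was above 0 for 35 of 43 members (81.4%), against 48% of all genes, with a median of 0.036 for the members and -0.0075 for all genes. This count rested on non-addicted rat 9. Without it, 18 of 43 members were above 0 and the median was -0.016. With all rats, 5 of 7 alpha subunits, 6 of 7 beta subunits, 5 of 6 ATPases and 5 of 8 lid subunits were above 0. Summed mural markers ran from 63.7 to 97.1 CPM in non-addicted rats and from 103 to 174 CPM in MA12, without overlap, with all 5 below 0 (median log2FC -0.81). All 5 endothelial and 7 oligodendrocyte markers also had a log2FC below 0 (medians -0.35 and -0.20). Of 6 markers of ependyma and choroid plexus, 5 had one above 0, with a median of 0.66 and a range from -0.35 to 5.90. None of these markers passed the adjusted threshold, and their part was not tested. The largest log2FC was that of *Psme4*, the nuclear activator PA200, at 0.21 (SE 0.10, unadjusted p = 0.0603, adjusted p = 0.441, edgeR). It had levels of 6.22, 5.82, 6.17 and 6.19 in non-addicted rats 9, 11, 12 and 13 and of 5.76, 6.08, 5.85 and 5.88 in MA12 rats 21, 31, 4N and 7N. Non-addicted rat 11 lay within the MA12 range. *Psmg4* followed at 0.15 (SE 0.14), and the lowest values were -0.075 for *Psma5*, an alpha subunit, and -0.071 for *Psmd14*. These values depended on single rats. Without non-addicted rat 9, *Psmg4* was at 0.022 and *Psma5* at -0.13, and with each rat left out they ran from 0.022 to 0.24 and from -0.13 to -0.020. The active-site genes *Psmb5*, *Psmb6* and *Psmb7* had log2FC values of 0.036, 0.010 and -0.0057. All 43 intervals lay within 1.5-fold and 36 lay within 1.25-fold.

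In non-addicted vs MA24, no gene of the 12640 tested passed (0%), with or without the fold limit, although 2229 genes (17.6%) had an unadjusted p below 0.05 and DESeq2 called 444. By DESeq2 no member was among them. *Psmd1*, a scaffold of the base, was the only member with an unadjusted p below 0.05 (2.33% of members). Its levels were 7.62, 7.51, 7.62 and 7.42 in non-addicted rats 9, 11, 12 and 13 and 7.33, 7.40, 7.45 and 7.33 in MA24 rats 9N, 14N, 15N and 16N. Rats 13 and 15N overlapped, and the log2FC was 0.17 (SE 0.07, unadjusted p = 0.0316, adjusted p = 0.239, edgeR). The levels did not overlap for *Psmd14* alone (2.33% of members, against 9.41% of all genes), by a narrow margin. *Psmd14* ran from 5.69 to 5.94 in non-addicted rats and from 5.31 to 5.68 in MA24 rats, with a log2FC of 0.18 (SE 0.10, adjusted p = 0.345, edgeR), which was 0.10 without rat 16N. *Psmd5*, a base chaperone, had the largest log2FC at 0.22 (SE 0.11, adjusted p = 0.320, edgeR), while *Psmg4* and *Psmb5* were lowest at -0.13 each. With each rat left out, *Psmd5* ran from 0.12 (without non-addicted rat 9) to 0.30, and *Psmg4* from -0.27 (without the same rat) to -0.069 (without non-addicted rat 13). For *Psmb6* and *Psmb7* the values were -0.090 and -0.027. The log2FC was above 0 for 21 of 43 members (48.8%), against 50.5% of all genes, and 13 of 43 were above 0 without non-addicted rat 9. By role, 6 of 7 alpha subunits and 5 of 8 lid subunits were above 0, against 1 of 7 beta subunits and none of the 3 core chaperones. Summed endothelial markers were lower in non-addicted rats, from 341 to 473 CPM against 521 to 571 CPM in MA24, without overlap, and so were oligodendrocyte markers, from 12367 to 17441 CPM over 7 genes against 17876 to 21407 CPM. All 5 endothelial, 7 oligodendrocyte, 5 mural and 7 microglial markers had a log2FC below 0, and all 6 markers of ependyma and choroid plexus had one above 0, from 36.1 to 95.3 CPM in sum against 25.9 to 43.1 CPM. The log2FC of the markers of ependyma and choroid plexus ran from 0.25 to 5.58, with a median of 0.99. None of these markers passed the adjusted threshold, and their part was not tested. All 43 intervals again lay within 1.5-fold, 33 of them within 1.25-fold. The 3 comparisons share rats in pairs, so their values are not independent of each other.

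On the log2 scale the members had a smaller median spread from rat to rat than all genes. Their median SD within groups was 0.105 on the log2 CPM scale, against 0.177 for all 12649 genes with a mean count above 4, of which 18.2% had an SD below that member median. For ribosomal and oxidative phosphorylation genes the medians were 0.12 and 0.11. Counting error alone gave a median SD of 0.0326 for the members and 0.0632 for all 12649 genes. The part of this lower counting error in the smaller spread of the members was not tested. Of the 43 members, 37 varied by more than 2 times their counting SD, and the share of all genes was not computed. *Psmd11* varied least (SD 0.047) and *Psma3* most (SD 0.26). *Psma3*, an alpha subunit, has a near-identical copy under the symbol *Psma3l*, listed at 0, so its reads may be split between copies in a way that the counts do not show. A filter that removes the 15% of genes with the lowest variance would have taken out 23 of the members in MA24 vs MA12 (53.5%), 15 in non-addicted vs MA12 (34.9%) and 17 in non-addicted vs MA24 (39.5%).

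The small variation was shared by most members. After each gene was centred on its group means, the median Pearson's r over the 903 pairs of members was 0.368 across 12 libraries, and 78.1% of pairs were above 0. Over all pairs of the 12649 genes the median was -0.0010 and 49.9% were above 0. Each library enters every pair and the libraries differ in depth, so these correlations are a description. Non-addicted rat 9 carried a large part of them. Without it the median r was 0.209 and 67.1% of pairs were above 0, and leaving out MA24 rat 14N as well gave 0.119, while leaving out any other single rat gave 0.352 to 0.428. Rat 9 had the highest level of its group for 36 of 43 members and the highest of all 12 rats for 24. Its mean member level was 0.17 above the average over all libraries, that of MA24 rat 14N was 0.094 above, and the other 10 rats lay between -0.075 and 0.020.

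**Figure D3:**
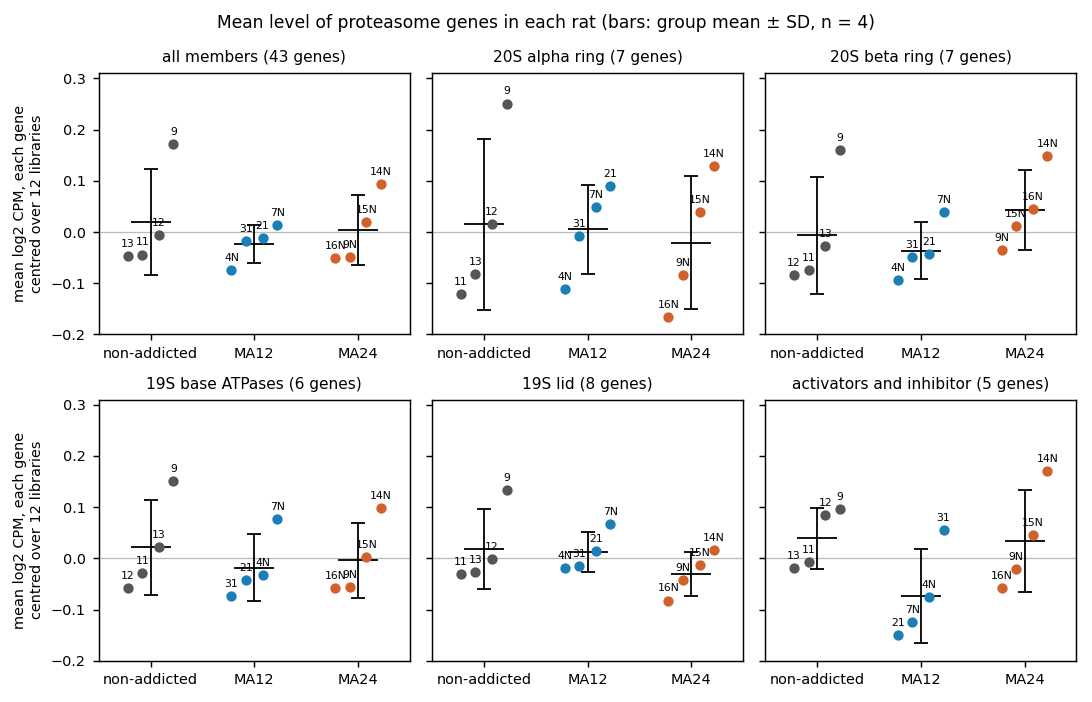
Mean level in each rat (points, with rat numbers) of all members and of 5 role groups, as log2 CPM after each gene was centred over the 12 libraries, with group means and SD (bars, n = 4). Non-addicted rat 9 is highest in the panels of all members, both 20S rings, the ATPases and the lid, and the 3 groups overlap in every panel.

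The role groups differed in how closely they varied. The core particle was the most uniform, with a median r of 0.698 among alpha subunits and 0.737 among beta subunits, and no pair of either ring was below 0. The base ATPases had a median of 0.612, the core chaperones 0.591 and the base chaperones 0.417. Among lid subunits it was 0.0035, among activators and inhibitors -0.024, and among base subunits other than ATPases 0.124. The chaperone groups and the base subunits other than ATPases rest on 3 pairs each. Without non-addicted rat 9 the alpha and beta rings were at 0.544 and 0.533, and 95.2% of the pairs in each ring were above 0. The ATPases were then at 0.438, the core chaperones at 0.404, the base chaperones at 0.379 and the lid at -0.043. Ribosomal genes had a median r of 0.661 and oxidative phosphorylation genes of 0.448, and without rat 9 these were 0.655 and 0.373.

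**Figure D4:**
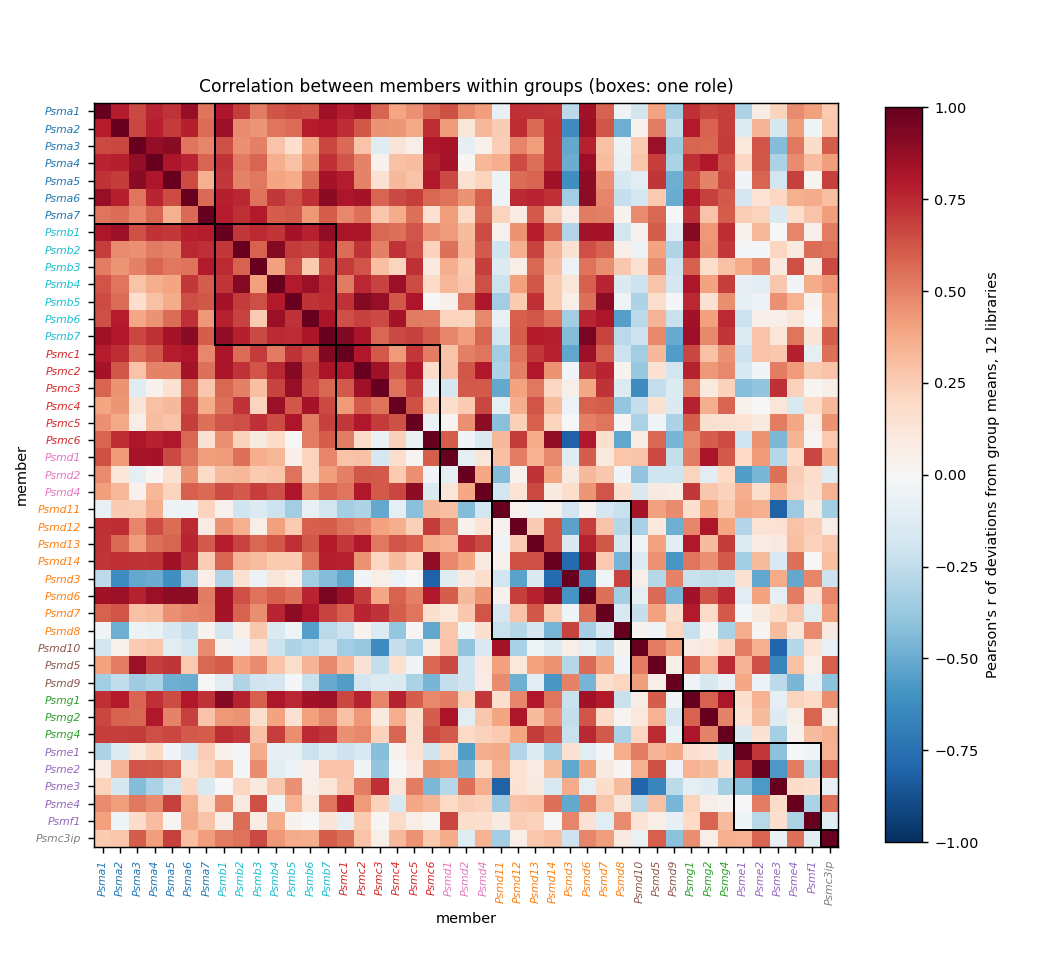
Pearson's r between every pair of members over 12 libraries after centring within groups, ordered by role, with boxes around each role. The boxes of the alpha ring, the beta ring and the ATPases are mostly red (r above 0), while the rows of *Psmd3*, *Psmd8* and *Psmd9* are mostly pale to blue (r near or below 0) against the core subunits.

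Each member was also compared with the mean of the other 42. The correlation was above 0.5 for 31 members, between 0 and 0.5 for 8 and below 0 for 4. The 31 include *Psmc3ip*, which is no proteasome gene (r = 0.556, and 0.599 without non-addicted rat 9). The share of all genes above 0.5 with the member mean was not computed. The closest were *Psmb1* (r = 0.924), the lid subunit *Psmd6* (0.923), *Psmb7* (0.920), the core chaperone *Psmg1* (0.914) and *Psma4* (0.878). The 4 below 0 were the lid subunit *Psmd3* (-0.376), the base chaperone *Psmd9* (-0.305), *Psme3*, the nuclear activator PA28 gamma (-0.116), and the lid subunit *Psmd8* (-0.114). Without non-addicted rat 9, 19 members were above 0.5 and 6 below 0, with *Psmb7* (0.850) and *Psmd6* (0.846) closest. *Psmd9* (-0.763) and *Psmd3* (-0.435) were then lowest, and *Psme3* and *Psmd8* were above 0 (0.110 and 0.057). The levels show the contrast between a close and a distant member. *Psmb1* was 7.42 in rat 9 and 7.08 to 7.16 in the other non-addicted rats, while *Psmd3* was 7.58 in rat 9 and 7.59 to 7.63 in the others.

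**Figure D5:**
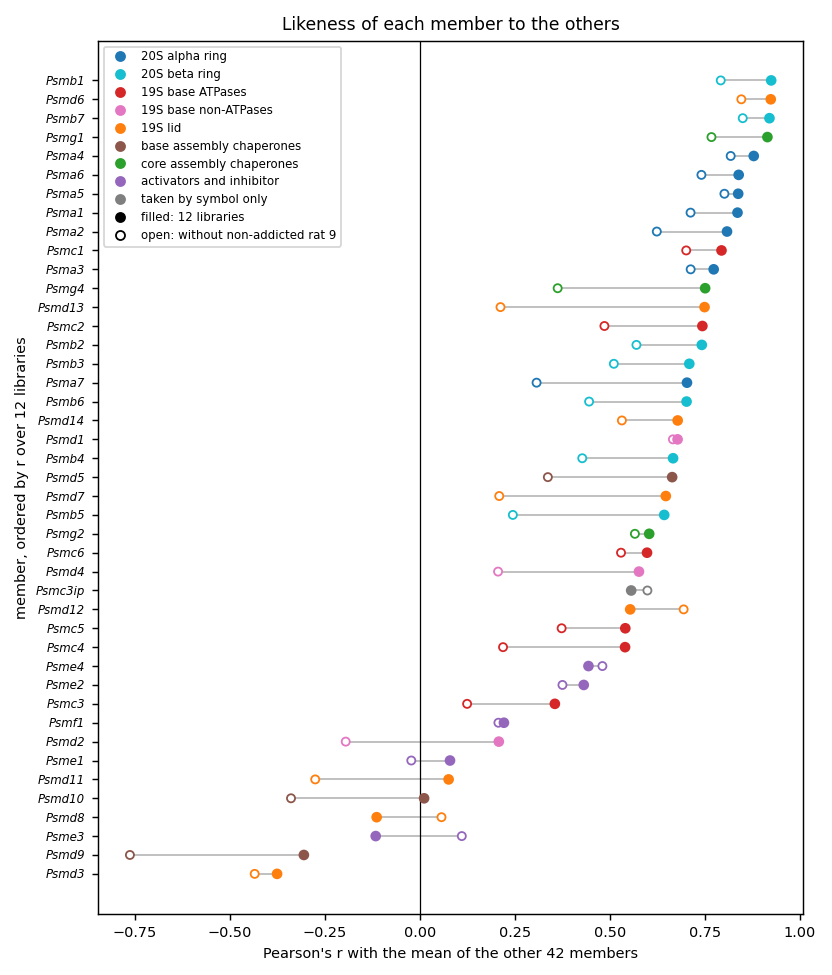
Pearson's r of each member with the mean of the other 42 members, over 12 libraries (filled points) and without non-addicted rat 9 (open points), coloured by role. The alpha subunits lie between 0.703 and 0.878 when filled, the activators and inhibitors at or below 0.444, and most open points lie to the left of the filled ones.

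The promoters of the 2 members closest to the others and the 2 most distant, among those with an entry, are printed because these members differ in how they followed the rest. They are RefSeq sequences of build GRCr8, from 250 bases before to 50 after the start, 5′ to 3′ on the strand of the gene. *Psmb1* is at chr1:65134721-65135020 (minus strand), *Psmb7* at chr3:42827421-42827720 (minus strand), *Psmd3* at chr10:84139688-84139987 (plus strand) and *Psmd9* at chr12:39018215-39018514 (minus strand). Capitals mark 4 motifs searched on both strands, TGACNNNGC (core of the antioxidant response element, bound by Nrf factors), CCAAT (bound by NF-Y), CCGGAAG (bound by ETS factors) and TATAAA (bound by TBP).
Psmb1: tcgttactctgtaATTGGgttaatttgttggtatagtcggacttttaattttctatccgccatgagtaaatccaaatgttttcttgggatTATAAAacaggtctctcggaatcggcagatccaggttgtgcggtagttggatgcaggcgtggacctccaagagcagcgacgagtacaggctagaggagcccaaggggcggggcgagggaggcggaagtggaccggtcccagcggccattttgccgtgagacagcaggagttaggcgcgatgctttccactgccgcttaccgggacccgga
Psmb7: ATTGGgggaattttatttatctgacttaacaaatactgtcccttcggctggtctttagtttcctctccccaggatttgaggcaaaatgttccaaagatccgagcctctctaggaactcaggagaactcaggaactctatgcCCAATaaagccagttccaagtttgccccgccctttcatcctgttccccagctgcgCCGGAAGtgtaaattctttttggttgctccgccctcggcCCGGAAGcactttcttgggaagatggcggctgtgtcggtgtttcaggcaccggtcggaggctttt
Psmd3: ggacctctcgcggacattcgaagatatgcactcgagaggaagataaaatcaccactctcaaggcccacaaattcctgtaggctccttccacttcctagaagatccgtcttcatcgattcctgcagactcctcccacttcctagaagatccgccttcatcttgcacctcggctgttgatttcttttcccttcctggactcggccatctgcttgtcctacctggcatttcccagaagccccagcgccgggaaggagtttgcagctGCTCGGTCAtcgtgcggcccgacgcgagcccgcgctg
Psmd9: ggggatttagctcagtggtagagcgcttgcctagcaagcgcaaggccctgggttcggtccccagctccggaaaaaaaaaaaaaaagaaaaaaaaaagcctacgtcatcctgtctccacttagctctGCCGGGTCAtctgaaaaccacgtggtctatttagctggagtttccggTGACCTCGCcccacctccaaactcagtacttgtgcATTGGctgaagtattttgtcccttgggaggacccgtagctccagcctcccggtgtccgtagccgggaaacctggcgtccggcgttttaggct

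*Psmb7* held 2 ETS and 2 CCAAT motifs, and *Psmb1* held 1 CCAAT and 1 TATA motif. *Psmd9* held 2 antioxidant response motifs and 1 CCAAT motif, and *Psmd3* held 1 antioxidant response motif. Of the 43 members, 39 had a promoter in the table, and *Psma7*, *Psmd12*, *Psmd14* and *Psmd6* had none. The antioxidant response motif was in 8 of the 39 (20.5%), among them *Psmb5*, *Psmb6* and *Psme4*, against 12.1% of all 33469 promoters of this length and 15.1% of the 9533 promoters of genes tested here. The CCAAT motif was in 19 (48.7%), against 37.5% and 37.6%. The ETS motif was in 14 (35.9%), against 8.75% and 16.2%, and the TATA motif in 4 (10.3%), against 14.2% and 7.10%. A match is a run of letters in this window and not evidence that a factor binds there.

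The immunoproteasome genes replace the active-site subunits in immune cells and after interferon, *Psmb8* in place of *Psmb5*, *Psmb9* in place of *Psmb6* and *Psmb10* in place of *Psmb7*. None passed the adjusted threshold in any comparison. *Psmb10* had levels of 5.15, 5.03, 5.20 and 4.97 in MA12 rats 21, 31, 4N and 7N and of 5.32, 5.53, 5.29 and 5.21 in MA24 rats 9N, 14N, 15N and 16N. In non-addicted rats 9, 11, 12 and 13 they were 4.87, 5.08, 4.71 and 5.17. The MA24 rats lay above all others, by a margin under 0.01 to MA12 rat 4N. Of the 3 genes, only *Psmb10* had groups that did not overlap in MA24 vs MA12 and in non-addicted vs MA24. Over all genes these shares were 14.4% and 9.41%. For *Psmb10*, the values of the test follow. The log2FC was 0.25 in MA24 vs MA12 (SE 0.09, adjusted p = 0.126, edgeR) and -0.37 in non-addicted vs MA24 (SE 0.11, adjusted p = 0.140, same edgeR test). Counts of *Psmb10* were 18.8% to 20.2% of those of *Psmb7* in MA24 rats, 14.5% to 19.1% in MA12 rats and 12.7% to 18.0% in non-addicted rats, with no correction for transcript length. *Psmb8* and *Psmb9* had few counts, from 73 to 146 and from 51 to 124 per library. Their counts were 2.14% to 4.08% of those of *Psmb5* and 2.17% to 4.15% of those of *Psmb6*, with overlap between all groups. Summed microglial markers, from cells that express immunoproteasome genes, ran from 312 to 405 CPM in MA24, from 313 to 361 CPM in MA12 and from 247 to 352 CPM in non-addicted rats, and their part was not tested.

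*Psme1* and *Psme2* encode both subunits of the interferon-induced activator PA28 and are members. They varied together within groups (r = 0.704 over 12 libraries). *Psme2* had an r of 0.213, 0.621 and 0.105 with the immunoproteasome genes *Psmb8*, *Psmb9* and *Psmb10*, and of -0.062, 0.050 and 0.283 with *Psmb5*, *Psmb6* and *Psmb7*. Other core subunits were as close to *Psme2* as *Psmb9* was. Its r ran from 0.071 (*Psma1*) to 0.631 (*Psma3*) over the alpha subunits. Over the beta subunits among the members it ran from -0.114 (*Psmb4*) to 0.470 (*Psmb3*). With the mean of the other members *Psme2* had an r of 0.431. For *Psme1* the values with the immunoproteasome genes were 0.096, 0.487 and -0.146 in the same order. The active-site genes had an r of 0.720 to 0.815 with each other. *Psme1* had an r of -0.216 to -0.087 with these active-site genes. These values describe the same 12 libraries and carry no test.

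Among 14 further genes of the proteasome whose symbols differ, none passed the adjusted threshold in any comparison. In MA24 vs MA12, 6 of the 14 had a log2FC above 0 (median -0.017), and in non-addicted vs MA12 and non-addicted vs MA24 these were 11 and 9 of the 14. The ubiquitin receptors *Ubqln1* and *Rad23b*, which carry substrates to the proteasome, had the smallest p. *Ubqln1* was at 7.59, 7.54, 7.65 and 7.61 in MA12 rats 21, 31, 4N and 7N and at 7.43, 7.11, 7.33 and 7.36 in MA24 rats 9N, 14N, 15N and 16N, without overlap (log2FC -0.29, SE 0.08, adjusted p = 0.0536, edgeR). *Rad23b* ran from 7.89 to 7.97 in MA12 and from 7.67 to 7.80 in MA24, also without overlap (log2FC -0.20, SE 0.06, adjusted p = 0.0921, edgeR). In non-addicted rats *Rad23b* ran from 7.92 to 8.07, and the log2FC in non-addicted vs MA24 was 0.25 (SE 0.07, adjusted p = 0.117, edgeR). *Pomp*, which matures the core, had only 12 to 34 counts per library, and its log2FC in MA24 vs MA12 had a wide 95% interval, from -1.30 to 0.46. The mean level of these 14 genes was highest in non-addicted rat 9, at 0.17 above the average over all libraries, and the other 11 rats lay between -0.063 and 0.065. The symbol rule does not take these genes.

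None of 9 regulators of proteasome transcription passed the adjusted threshold in any comparison. In MA24 vs MA12, 4 of the 9 had a log2FC above 0, and in non-addicted vs MA12 and non-addicted vs MA24 these were 7 and 6. *Nfe2l2*, which encodes Nrf2, had levels of 4.65, 4.90, 4.91 and 4.68 in non-addicted rats 9, 11, 12 and 13 and of 4.61, 4.38, 4.58 and 4.63 in MA12 rats 21, 31, 4N and 7N, without overlap (log2FC 0.23, SE 0.10, adjusted p = 0.379, edgeR). It was the only 1 of the 9 without overlap in non-addicted vs MA12, against 6.65% of all genes.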

How the data were processed

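Striatal poly-A RNA of 12 rats was sequenced. Per the labels and methods, the authors used Cutadapt 1.18 for trimming and STAR 2.7.0e for alignment (build rn6), and deposited raw counts per gene from featureCounts (the submitters' processing notes also name HTSeq 0.12.4). How strands and multimapping reads were treated is not given in the sources used here. All 12 columns of the table were used, and groups came from sample titles. Members and lists were chosen with earlier results of these data known.

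Pairs of groups were compared with edgeR 4.0.16 (R 4.3.3) by TMM and the quasi-likelihood test, with only those 8 libraries, genes with a mean count above 4 and Benjamini-Hochberg adjustment over all genes tested. The fit was tested on simulated data. The study's filter on the 15% of genes with the lowest variance was an alternative, since it removes members because they vary little. Levels are log2 CPM (prior count 2, TMM over 12 libraries). They depend on transcript length and were not compared between genes. Replicates are separate rats and differed by more than sampling noise. With these totals, counting error (SD) of a member was 0.0326 (median, log2). Other alternatives were RLE factors, library totals alone, DESeq2 1.42.0, the likelihood ratio test, count filters, a fit of all 3 groups, leaving out each rat, and the kind of rat number. Correlations were computed in Python 3.11.15 (pandas 2.3.3, scipy 1.17.1, numpy 2.4.6).

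Fold changes are given, by rule, for members past the adjusted threshold (none), the 2 largest rises and falls per comparison, the active-site genes and *Psmd14*, and also for members with an unadjusted p below 0.05 or groups that did not overlap, which were added after the values were seen.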

Additional observations from a re-analysis of the deposited data

Results flagged for a closer look

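In each group of 4 rats, the highest and the lowest level of the 43 members and 3 immunoproteasome genes were set against the other 3 rats. A rat was noted where its gap to the nearest rat was a larger share of the range of the group than Dixon's 95% critical value allows. This was so in 10 of 138 groups, where chance at 1 in 20 gives 6.9. Ratios of gap to range are given below.

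In non-addicted rats, rat 9 was highest for *Psmd6* (0.966, level 7.03 against at most 6.65) and for *Psmd7*, a lid subunit (0.912, 7.26 against at most 7.02). Rat 12 was highest for *Psmd8* (0.956), rat 13 lowest for *Psme1* (0.861) and rat 11 lowest for *Psme4* (0.870). In MA12, rat 4N was lowest for *Psma5* (0.890) and *Psmd1* (0.916). In MA24, rat 16N was lowest for *Psmd14* (0.925, 749 counts against 993 to 1164), rat 9N lowest for *Psme1* (0.938), and rat 14N highest for *Psmc3ip* (0.905). The highest of the 10 ratios was that of *Psmd6* in rat 9, the rat with the highest mean member level.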

How the results depend on the processing

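No member passed the adjusted threshold in any comparison under any alternative that was run, including DESeq2, which called 1278, 245 and 444 genes in all in MA24 vs MA12, non-addicted vs MA12 and non-addicted vs MA24, against 528, 5 and 0. The smallest adjusted p of any member was 0.0666, for *Psmg4* by DESeq2 in MA24 vs MA12. Over all genes that comparison had no calls among rats numbered with N, with the kind of number as a covariate or without MA12 rat 21, 2 calls without MA24 rat 16N, 98 without MA12 rat 31, 145 without MA24 rat 15N, 185 without MA24 rat 14N and 227 without MA12 rat 4N. It had 486 when MA12 rat 7N was left out and 787 when MA24 rat 9N was. In non-addicted vs MA12 there were 0 to 47 calls with each rat left out, and in non-addicted vs MA24 there were 0 or 1, except for 160 without non-addicted rat 13. Rats not numbered with N could not be compared with MA24, which has none. No paired analysis was possible because the groups share no rat numbers.

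The median log2FC of the members ran from 0.0041 to 0.055 in MA24 vs MA12, from -0.016 to 0.072 in non-addicted vs MA12 and from -0.031 to 0.031 in non-addicted vs MA24 when each rat was left out. With library totals alone the median in MA24 vs MA12 was -0.024 with 19 members above 0, beside -0.059 for all genes, and in non-addicted vs MA24 it was 0.041 with 31 above 0, beside 0.045 for all genes. *Psmb7*, whose log2FC lies near 0, changed sign with library totals alone in MA24 vs MA12 (-0.024) and in non-addicted vs MA24 (0.014). In non-addicted vs MA12 its sign changed with RLE factors (0.0010), DESeq2 (0.0010), all 3 groups in the fit (0.0025), rats not numbered with N (0.015) and the kind of number as a covariate (0.0028). With each rat left out it ran from -0.020 to 0.061, from -0.089 to 0.021 and from -0.059 to 0.026 in the same order of comparisons. In non-addicted vs MA12, *Psmb5* ran from -0.014 to 0.071 and *Psmb6* from -0.020 to 0.037. Of the fold changes of single members, 191 values under other settings and 166 with a rat left out kept their sign, and 7 and 10 did not.

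The median r between members ran from 0.209 to 0.428 when each rat was left out, chosen after the data were seen, with the lowest value without non-addicted rat 9. It was 0.119 without that rat and MA24 rat 14N. The spread between rats was more than 2 times the counting SD for 37 of the 43 members, and the part of depth in the results was not tested. *Psmb8*, *Psmb9* and *Pomp* had few counts.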
